A study of Mus musculus with 14 samples.

Results

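The miRNAs miR-122, miR-192, miR-194 and miR-802, all abundant in or linked to the liver and of which miR-122 is the defining hepatocyte miRNA, were followed in mouse plasma. Taken by name from a quantitative PCR screen, with mouse and rat assays and both arms included, they came to 6 wells of 392 named wells: mmu-miR-122, mmu-miR-192, its passenger arm mmu-miR-192*, mmu-miR-194, mmu-miR-802 and rno-miR-802. The screen covered 8 GEMM mice with OS (osteosarcoma, a malignant bone tumor) and 6 healthy wild-type littermates, 1 plasma sample per mouse. The OS mice carried Cre under a Col-α1(I) promoter, which is active in osteoblasts, and a floxed Trp53 on 1 or both alleles, so that Trp53 was deleted in osteoblasts. The methods give the wild-type mice as p53+/+;Cre+/−, so Cre can be present in both groups. Blood was taken by cardiac puncture once a tumor had formed. Which OS mice had lost 1 copy and which both, whether their tumors had spread, and the age of each mouse are not given in the sources used here. The question here was how much of each liver miRNA circulated in each mouse, whether the miRNAs moved together, and whether the groups differed.

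A miRNA silences messenger RNAs that pair with its seed, the bases at positions 2 to 8 of the mature strand. miR-122 is the dominant miRNA of hepatocytes, where it acts on cholesterol and lipid metabolism, and a raised level in plasma is a known sign of hepatocyte injury. miR-192 and miR-194 are made from shared transcripts in liver, gut and kidney, and in human cells they respond to p53. miR-802 is found in liver and pancreatic islets. Plasma holds what many tissues release, so release from more cells and more RNA released per cell cannot be told apart.

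The mature strands are shown because they separate miRNAs that share a target seed from miRNAs that share only a transcript. The RefSeq source used here held no entry for miR-122, so its strand, seed and position are not given. The 5 strands below are RefSeq sequences on build GRCm38.p6, written 5′ to 3′ with the seed in capitals.
mmu-miR-192-5p, the strand of the mmu-miR-192 assay: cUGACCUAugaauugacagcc
mmu-miR-215-5p, not one of the 6 wells but of the same seed: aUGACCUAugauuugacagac
mmu-miR-194-5p, the strand of the mmu-miR-194 assay: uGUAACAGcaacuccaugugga
mmu-miR-192-3p, the passenger arm named miR-192*: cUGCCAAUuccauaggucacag
mmu-miR-802-5p, the strand of the mmu-miR-802 assay: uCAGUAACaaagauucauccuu
Among 1679 mature mouse strands in that table, miR-192-5p and miR-215-5p were the only 2 with the seed UGACCUA, and they had the same base at 18 of 21 positions. The seeds of miR-194-5p, miR-192-3p and miR-802-5p were each found in 1 strand. Position groups them differently. Mir194-2 (chr19:6264643-6264728, plus strand) lies 115 bases before Mir192 (chr19:6264844-6264932, plus strand). Mir194-1 (chr1:185313319-185313385, plus strand) lies 195 bases before Mir215 (chr1:185313581-185313692, plus strand), both inside the bounds of the protein-coding gene Iars2. Both Mir194 hairpins give the same mature miR-194-5p, so the assay cannot tell the 2 loci apart. Mir802 lies at chr16:93369720-93369816 (plus strand), on another chromosome than the other hairpins named here.

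Each value is a quantification cycle (Cq), which is lower for a more abundant miRNA. Levels are given as the mean Cq of all retained miRNAs in a mouse minus the Cq of the miRNA, a log2 scale on which 1 unit is a doubling and 0 is the average miRNA of that plasma. Wells above Cq 37 counted as not detected. Between 333 and 373 named miRNAs were detected per OS mouse, and between 341 and 387 per control mouse. Comparing 2 assays assumes equal primer efficiency, which was not tested. A marker of haemolysis, Cq of miR-23a minus Cq of the red blood cell miRNA miR-451, was 4.19 ± 1.94 in OS mice (SD, n = 8, from 1.05 to 6.85) and 5.77 ± 1.43 in control mice (SD, n = 6, from 4.11 to 7.21). OS replicates 10, 11 and 12, at 1.05, 2.97 and 2.59, lay below every control mouse, so the within-mouse results are also given without them. The marker passed 7 in control replicates 3 and 13 only.

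mmu-miR-122 was among the most abundant miRNAs of every plasma. It ranked between 3rd and 11th of all detected miRNAs in a mouse, with a median rank of 5 in OS mice and 6.5 in control mice. Its Cq ran from 19.67 to 23.57 in OS mice and from 21.3 to 25.2 in control mice. Its level was lowest at 8.46, 9.41 at the median and highest at 12.05 in OS mice, against 7.64, 8.44 and 10.21 in control mice. OS replicate 10 was the highest mouse and control replicates 1, 3 and 13 were the lowest, but the groups overlapped. The mean was 9.78 ± 1.10 in OS mice (SD, n = 8) and 8.67 ± 1.12 in control mice (SD, n = 6).

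mmu-miR-192, the partner of miR-194 and seed partner of miR-215, ranked between 8th and 55th. Its level was lowest at 4.47, 5.54 at the median and highest at 7.31 in OS mice, against 4.70, 5.79 and 8.33 in control mice. Control replicate 2 was the highest mouse and OS replicate 11 the lowest, and the groups lay across each other. mmu-miR-194 had a level of 0.48 at the lowest, 2.67 at the median and 4.31 at the highest in OS mice, against 0.70, 2.70 and 4.63 in control mice. The same 2 mice, control replicate 2 and OS replicate 11, were its extremes. mmu-miR-192*, the less abundant strand of its hairpin, was near the average miRNA, at -0.22 ± 1.47 in OS mice (SD, n = 8) and 0.08 ± 1.27 in control mice (SD, n = 6).

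The order miR-122, then miR-192, then miR-194 held in 14 of 14 mice. miR-194 was above miR-192* in 14 of 14 mice and above mmu-miR-802 in 13 of 14 mice.

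mmu-miR-802 had the largest SD among the 5 liver wells measured in every mouse, 1.76 over 14 mice. Its level was lowest at -2.87, 1.15 at the median and highest at 3.06 in OS mice, against -0.29, 1.28 and 3.68 in control mice. The 3 lowest OS mice were replicates 10, 11 and 12, at -0.45, -0.41 and -2.87, and the other 5 OS mice lay between 0.93 and 3.06. The rat assay rno-miR-802 stood at Cq 40, the highest value in the data, in OS replicates 10 and 12, and its Cq in OS replicate 11 was 36.69. It was detected in 6 of 8 OS mice and 6 of 6 control mice (Fisher's exact test, two-sided, p = 0.473). The mouse and rat assays, which sit on different panels, followed each other with r = 0.94 over 12 mice, and the mouse assay read 3.07 ± 0.73 cycles earlier in OS mice (SD, n = 6) and 3.13 ± 0.43 cycles earlier in control mice (SD, n = 6).

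**Figure D1:**
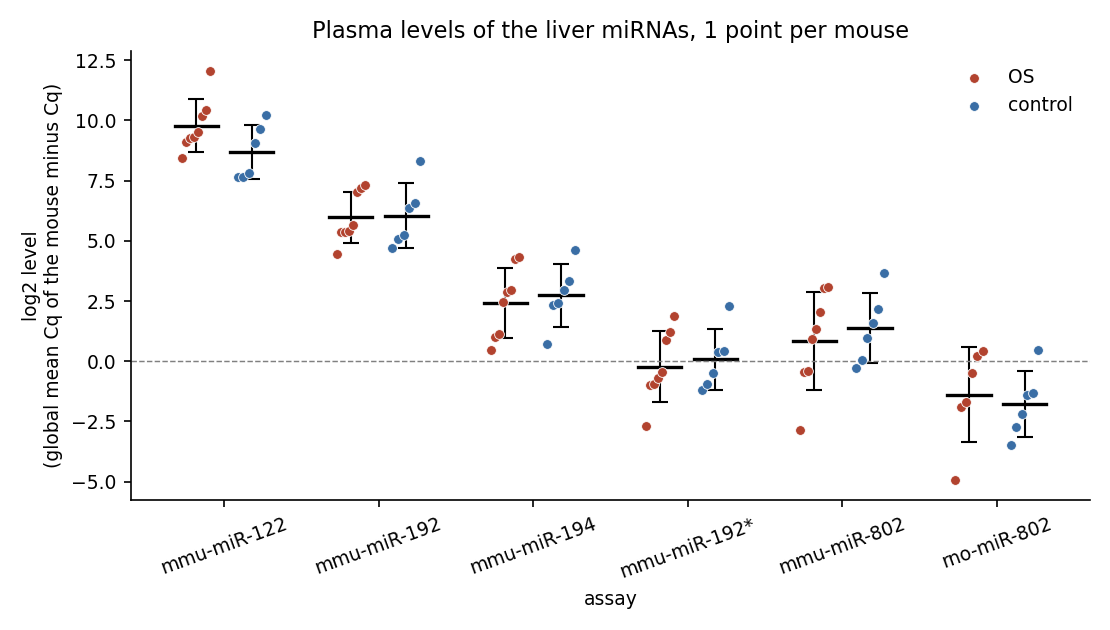
Log2 level (mean Cq of the mouse minus Cq of the miRNA) of the 6 assays, with 1 point per mouse, OS in red to the left of control in blue, and the black bars at the mean with its SD. The groups overlap in every assay, and mmu-miR-122 has the highest mean in both groups.

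No liver miRNA well differed between OS and control mice past the threshold of an adjusted p under 0.05. Of all 388 miRNAs tested with limma, 24 were higher and 25 lower in OS mice, a share of 12.6%, with a split that moved with the scaling. On the 3 reference miRNAs of the study as the scale, 22 were higher and 11 lower, with 28 and 14 on the median and 4 and 17 with unscaled Cq. Of the 6 liver wells 0 were called and 0 had an unadjusted p under 0.05. The unadjusted count became 1 when scaled to the median and with the panels centred separately. It was also 1 on leaving out OS replicate 11, OS replicate 16, control replicate 2 or control replicate 14. The methods' t-test with Benjamini-Hochberg adjustment also called 0 of the 6. The largest difference, OS minus control, was that of mmu-miR-122, at +1.11 on the log2 scale (SE 0.55, 95% interval -0.04 to 2.26, adjusted p = 0.179). The exact permutation test gave p = 0.0882 for it. It was +0.79 to +1.42 when each mouse was left out in turn. For mmu-miR-192 the difference was -0.06 (SE 0.58, 95% interval -1.27 to 1.15, adjusted p = 0.962). For mmu-miR-194 it was -0.30 (SE 0.66, 95% interval -1.69 to 1.08, adjusted p = 0.793), and mmu-miR-192* had -0.30 as well (SE 0.66, 95% interval -1.69 to 1.09, adjusted p = 0.793). mmu-miR-802 gave -0.52 (SE 0.83, 95% interval -2.27 to 1.22) and rno-miR-802, with OS replicates 10 and 12 missing from the fit, gave 0.37 (SE 0.82, 95% interval -1.37 to 2.12). The intervals of the miR-192, miR-192*, miR-194 and miR-802 assays each hold both a doubling and a halving, so these comparisons set no narrow limit.

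mmu-miR-122, mmu-miR-192 and mmu-miR-194 varied together from mouse to mouse. Over 14 mice, miR-122 and miR-192 had r = 0.78 (permutation p = 0.00092, adjusted over 15 pairs 0.00345) and rho = 0.87 (permutation p = 0.00014, adjusted 0.0007), and r was 0.78 without the 2 mice farthest from the median. Within groups r was 0.87 in OS mice (n = 8) and 0.94 in control mice (n = 6). miR-192 and miR-194, whose hairpins Mir192 and Mir194-2 neighbour each other, had r = 0.87 (adjusted permutation p = 0.0003) and rho = 0.89 (adjusted 0.0003), with 0.85 in OS mice and 0.92 in control mice and 0.79 without the 2 farthest mice. miR-122 and miR-194 had r = 0.66 (permutation p = 0.00912, adjusted 0.0195) and rho = 0.74 (adjusted 0.0103), with 0.78 in OS mice and 0.88 in control mice. This r was 0.52 without the 2 farthest mice, and without control replicate 1 it was 0.60 and no longer passed (adjusted permutation p = 0.054). The 2 arms of the Mir192 hairpin had r = 0.88 (adjusted permutation p = 0.000225) and rho = 0.86 (adjusted 0.0009), although their assays sit on different panels.

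mmu-miR-802 and miR-122 showed no such tie. Their r was 0.02 over 14 mice (permutation p = 0.941, rho = 0.12, permutation p = 0.693), -0.06 in OS mice and 0.43 in control mice. miR-802 and miR-194 had r = 0.57 (permutation p = 0.0301, adjusted 0.0501) and rho = 0.49 (permutation p = 0.0799, adjusted 0.133).

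The strength of these ties can be read against all 276 miRNAs measured in every mouse, whose pairs had a median r of 0.01 and a 95th percentile of 0.68 over 14 mice. Of the 271 that are not liver wells here, 0 had a higher r with miR-122 than miR-192 did, and 0 had a higher r with miR-192 than miR-194 did. The r of miR-194 with miR-122 was exceeded by 9 of the 271. All levels share the mean of their mouse, so these r are descriptions. The miRNAs most like miR-122 among the 271 were miR-30a* (r = 0.76), miR-193* (0.74), miR-365 (0.74), miR-874 (0.73) and miR-1195 (0.71), over 14 mice. Of these, miR-1195 was higher in OS mice, with a log2 difference of 2.12 (adjusted p = 0.0214), and the other 4 were not called. The miRNAs most like the mean of miR-192 and miR-194 were miR-101b (r = 0.82), miR-31* (0.77), miR-30a* (0.72), miR-592 (0.68) and miR-21 (0.67).

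**Figure D2:**
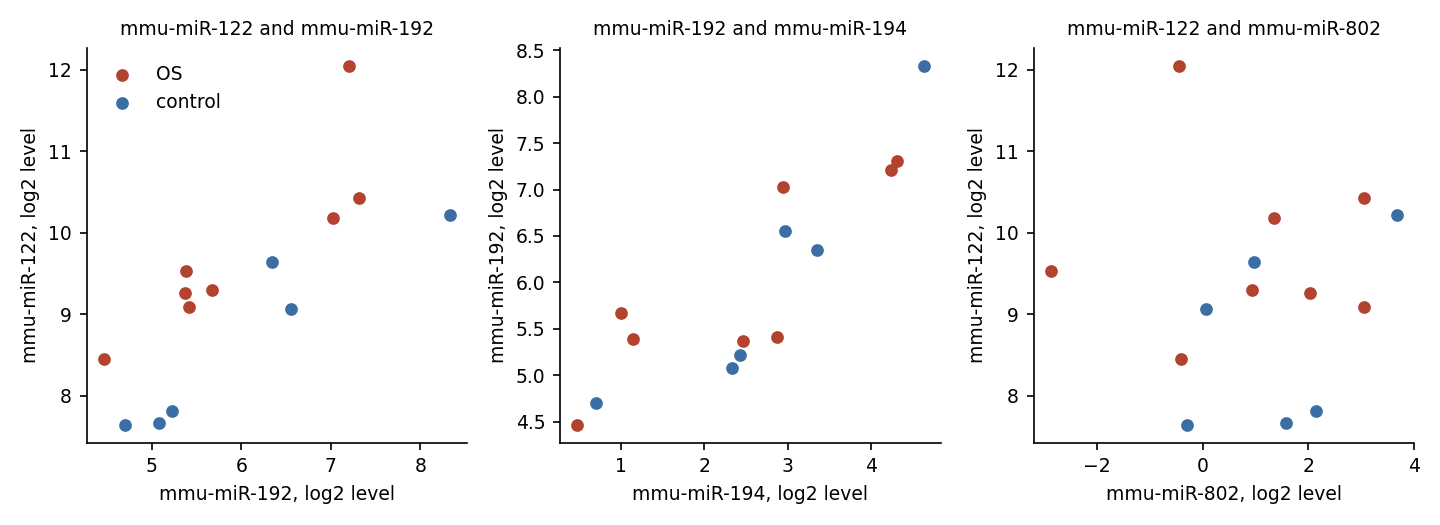
Log2 levels of pairs of liver miRNAs, 1 point per mouse, OS in red and control in blue. In the left panel 6 of the 8 OS mice exceed every control mouse in miR-122 minus miR-192, with a small overlap. In the middle panel both groups share a line, and in the right panel miR-122 and miR-802 show no common trend.

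miR-122 was raised in OS mice relative to miR-192 of the same plasma. This difference is the Cq of one assay minus that of the other in the same mouse, so the scaling between mice cancels. Both assays sit on the same panel. miR-122 exceeded miR-192 by 3.11 at the lowest, 3.79 at the median and 4.84 at the highest on the log2 scale in OS mice, against 1.88, 2.59 and 3.29 in control mice. The overlap was small. There were 6 OS mice above every control mouse, and OS replicates 15 and 18, at 3.11 and 3.15, lay just under control replicate 14 at 3.29. The mean was 3.80 ± 0.56 in OS mice (SD, n = 8) and 2.63 ± 0.47 in control mice (SD, n = 6). The difference of 1.17 is 2.25-fold (exact permutation test, two-sided, p = 0.00166, adjusted over 15 pairs 0.015). With 8 against 6 mice the smallest p this test can give is 0.000333.

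The other arm of Mir192 gave a like value, though not an independent one. Both differences start from the same miR-122 values, and the 2 arms had r = 0.88 over 14 mice. miR-122 exceeded miR-192* by 9.19 at the lowest, 9.90 at the median and 11.96 at the highest in OS mice, against 7.92, 8.63 and 9.25 in control mice. Of the 8 OS mice, 7 lay above every control mouse, and the difference was 1.41 (exact permutation p = 0.0020, adjusted 0.015). Without OS replicate 17 it was 1.13. miR-122 minus miR-194 was 6.11 at the lowest, 7.52 at the median and 8.38 at the highest in OS mice, against 5.34, 5.84 and 6.94 in control mice. There 5 OS mice lay above every control mouse. The difference of 1.41 had an exact permutation p of 0.0107, which became 0.0533 after adjustment over the 15 pairs. Between the partners no difference passed the test. miR-192 minus miR-194 was 3.55 ± 0.78 in OS mice (SD, n = 8) and 3.31 ± 0.53 in control mice (SD, n = 6), with an exact permutation p of 0.511. miR-192 minus miR-192* was 6.20 ± 0.84 in OS mice (SD, n = 8) and 5.97 ± 0.23 in control mice (SD, n = 6), with an exact permutation p of 0.643. The miR-192* assay sits on a different panel from miR-122 and miR-192, so an offset between panels does not cancel in its differences. Of the 15 pairs, 2 passed the threshold on adjusted p. The differences of miR-122 from miR-192, miR-192* and miR-194 had an unadjusted exact permutation p under 0.05. At that same limit, miR-122 was higher in OS mice against 36.5% of the 271 miRNAs that are not liver wells.

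**Figure D3:**
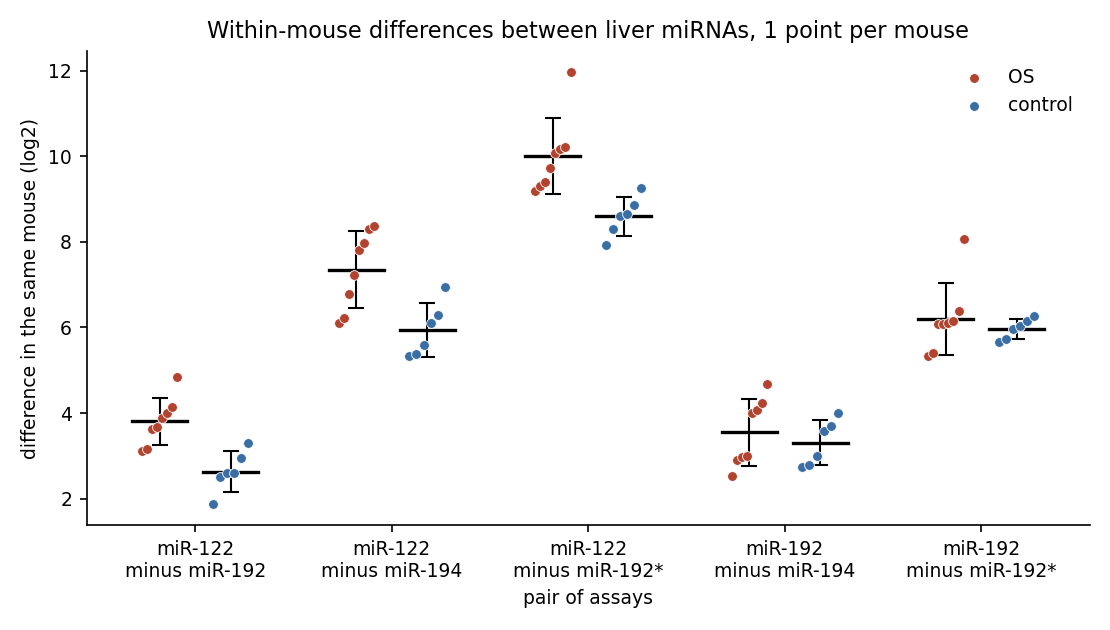
Difference between 2 liver miRNAs in the same mouse on the log2 scale, 1 point per mouse, OS in red to the left of control in blue, with the mean and SD in black. The 3 differences that start from miR-122 have higher means in OS mice with some overlap between groups, and miR-122 minus miR-194 did not pass after adjustment. For miR-192 minus miR-194 and miR-192 minus miR-192* the groups overlap more widely.

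Many miRNAs gave such a difference when set against miR-122. Set against each of the 271 miRNAs that are not liver wells, miR-122 was higher in OS mice at an exact permutation p under 0.05 in 99 cases (36.5%) and lower in 4 (1.48%), with a median difference of 1.18. The 1.17 against miR-192 lies near that median, and 137 of the 271 gave a larger difference. The spread was smaller than for the others. The SD between mice within groups of miR-122 minus miR-192 was 0.52, lower than against any of the 271, where the lowest was 0.64, against miR-30a*, and the median 1.40. miR-192 set against each of the same miRNAs was higher in OS mice in 10 cases (3.69%) and lower in 16 (5.9%). miR-194 was higher in 6 cases (2.21%) and lower in 15 (5.54%).

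**Figure D4:**
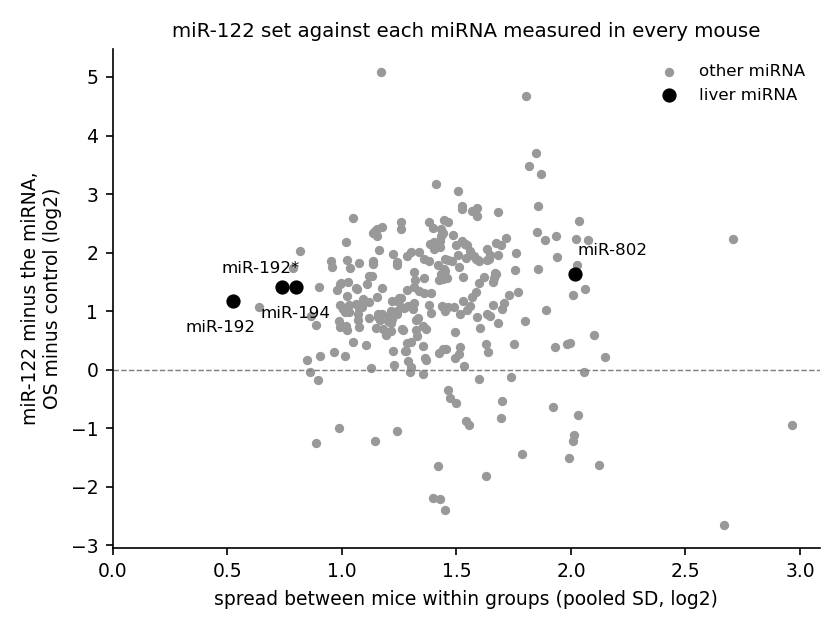
Each point is 1 miRNA measured in every mouse, with the difference of miR-122 minus that miRNA, OS minus control (log2), on the vertical axis and its pooled SD within groups (log2) on the horizontal axis. miR-192 lies at the left edge with a difference of 1.17 and an SD of 0.52, and miR-802 lies to the right among the most variable.

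The haemolysis marker varied with the within-mouse difference over all mice. Its mean also differed between the groups, so a relation over all mice carries that group difference too. miR-122 minus miR-192 had r = -0.67 with the haemolysis marker over 14 mice (permutation p = 0.00862, adjusted over 8 relations 0.0345) and rho = -0.57 (permutation p = 0.0353, adjusted 0.0942), and r was -0.45 without the 2 mice farthest from the median. Without OS replicate 10, 11 or 12 or control replicate 3 or 13 the relation no longer passed, and it was weakest without OS replicate 10 (r = -0.51, adjusted permutation p = 0.153). Within the OS mice r was -0.97 (exact permutation p = 0.000149, adjusted 0.00119). Within the control mice it was 0.29 (exact permutation p = 0.578), and the difference between these r was not tested. OS replicate 10 had both the lowest marker, 1.05, and the largest miR-122 minus miR-192, 4.84. miR-122 minus miR-194 had r = -0.70 (permutation p = 0.00562, adjusted 0.0345), which was -0.62 in OS mice and -0.57 in control mice and no longer passed without any 1 of the same 5 mice (adjusted permutation p up to 0.0930). The level of miR-122 had r = -0.38 with the marker (permutation p = 0.174), and that of mmu-miR-802 had r = 0.61 (permutation p = 0.0192, adjusted 0.0511) and rho = 0.67 (adjusted 0.0504).

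With the marker as a covariate, miR-122 minus miR-192 was 0.89 higher in OS mice (SE 0.27, permutation p = 0.00314, adjusted 0.0471), miR-122 minus miR-192* was 1.30 higher but no longer passed (adjusted 0.0664), and miR-122 minus miR-194 had a difference of 0.97 (SE 0.40, adjusted 0.17). This fit assumes the same slope on the marker in both groups. For miR-122 minus miR-192 the r with the marker was -0.97 within OS mice and 0.29 within control mice, so its adjusted difference depends on that assumption. Without OS replicates 10, 11 and 12, miR-122 minus miR-192 was 3.49 in the other 5 OS mice and 2.63 in control mice, a difference of 0.86 (exact permutation p = 0.0130, adjusted 0.0974). Of those 5 OS mice, 3 lay above every control mouse. miR-122 minus miR-192* then differed by 1.45 (exact permutation p = 0.00433, adjusted 0.0649), miR-122 minus miR-194 by 0.99 (exact permutation p = 0.0541) and miR-192 minus miR-192* by 0.60 (exact permutation p = 0.0433, adjusted 0.203), where it was 0.24 with all mice. Without control replicates 3 and 13 the difference was 1.15 (exact permutation p = 0.00808, adjusted 0.0909), where the smallest p the test can give is 0.00202.

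**Figure D5:**
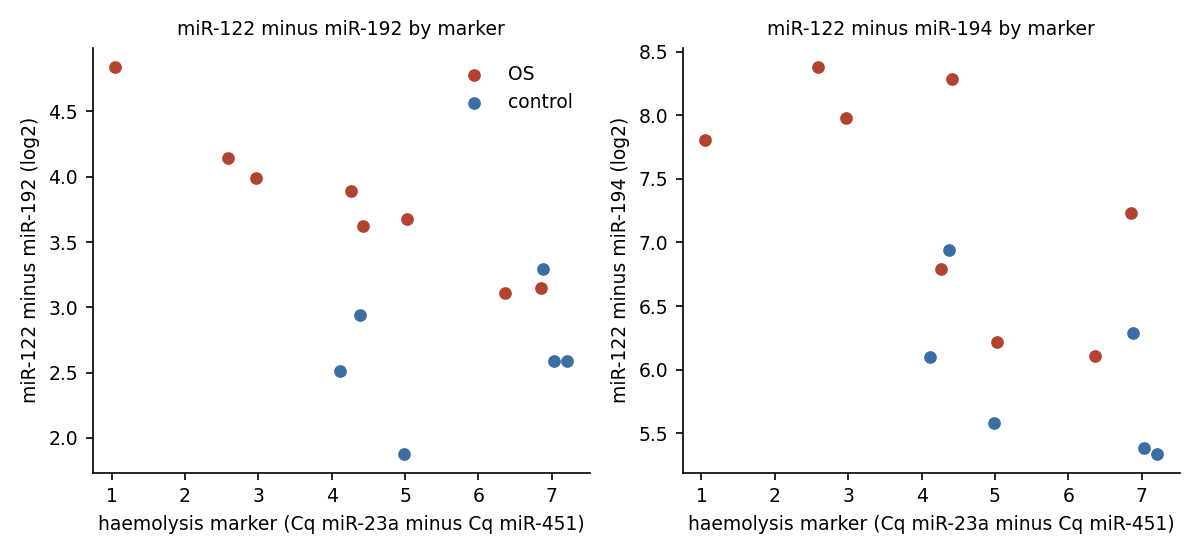
Within-mouse difference of miR-122 minus miR-192 (left) and minus miR-194 (right), on the log2 scale, against the haemolysis marker in cycles, 1 point per mouse, OS in red and control in blue. In the left panel the OS mice fall along a line as the marker grows, and the 2 OS mice of highest marker reach the control mice.

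Of the other cells that shed miRNAs into plasma, the red blood cell list had 1 of 5 assays called, lower in OS mice, where 12.6% of all miRNAs tested were called. This was miR-144, at -2.38 on the log2 scale (adjusted p = 0.0131). miR-451 had -1.43, miR-16 had -0.77, and miR-486 and miR-486* had 0.05 and 0.04. The mean level of that list ran from 5.76 to 7.68 over OS mice and from 6.82 to 8.78 over control mice. Of the platelet and white blood cell list 1 of 5 was called, miR-142-3p, at -3.57 (adjusted p = 0.00326). The other assays lay much closer to no difference, with miR-126-3p at -0.63, mmu-miR-223 at -0.49, rno-miR-223 at -0.24 and miR-150 at 0.02. The mean level of that list ran from 4.98 to 5.98 over OS mice and from 6.09 to 6.77 over control mice. The muscle list had 0 of 8 called, and its mean level ran from 0.80 to 4.75 over OS mice and from 2.07 to 4.07 over control mice. The gut list, which shares miR-192 and miR-194 with the liver, had 0 of 8 called, with a mean level from 0.07 to 3.11 over OS mice and from 1.29 to 2.65 over control mice. The part of white blood cells, platelets, muscle and gut in the miR-122 result was not tested.

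Among other miRNAs with roles in the liver, none passed the threshold in limma. Of 15 assays 0 were called, against 12.6% of all miRNAs tested, 3 had an unadjusted p under 0.05, and their median difference was -0.62 on the log2 scale, against a median of -0.003 over all miRNAs tested and -0.18 over the 6 liver wells. The 3 were miR-101a (-1.23, adjusted p = 0.0748), miR-101a* (-1.60, adjusted p = 0.0615) and miR-148a* (1.41, adjusted p = 0.0978, detected in 4 of the control mice). miR-215, which shares the seed of miR-192 and sits beside Mir194-1, varied more between mice. The rno-miR-215 assay, measured in every mouse, had r = 0.10 with miR-192, 0.34 with miR-194 and 0.68 with mmu-miR-802 over 14 mice. The mmu-miR-215 assay had r = 0.32 with miR-192, 0.55 with miR-194 and 0.71 with mmu-miR-802 over the 12 mice in which it was detected. The level of rno-miR-215 was -4.16 at the lowest, -0.77 at the median and 3.10 at the highest in OS mice, against -1.56, 0.74 and 2.35 in control mice. For rno-miR-215 the difference was -1.13 (SE 1.05, adjusted p = 0.488). For mmu-miR-215, detected in 6 OS mice and 6 control mice, it was -0.07 (SE 1.02, adjusted p = 0.98).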

How the data were processed

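The authors deposited Cq values, on a log2 scale and not normalized between mice, for 768 wells of Exiqon mouse panels I and II in each mouse. The sources used here do not say whether interplate calibration and outlier removal preceded the deposit. Their table of fold changes and p-values served only to name wells. The methods give 14 OS mice, and 8 were analysed here.

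Following the methods, wells beyond Cq 37 counted as missing, miRNAs with 75% or more missing were removed, leaving 388 of 389, and each mouse was centred on its mean Cq. For that mean only, a missing value took the group mean or Cq 38. Groups were compared with limma 3.58.1 in R 4.3.3 (two-sided, Benjamini-Hochberg over 388), single values by exact permutation in Python 3.11.15, and correlations over 12 or 14 mice by 100000 permutations, exact within a group. The covariate fit of within-mouse differences permuted the residuals left by the marker alone, 100000 times. Scripts were first tested on simulated data. Precision rests on the number of mice, since a Cq carries no count.

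The miRNAs, lists and tests were chosen with earlier results of these data known. Named are every liver well, miR-215, listed markers past a threshold, the 5 miRNAs most like each pattern, and the haemolysis pair. Alternatives were other scalings, Cq limits, treatments of missing values, filters, the methods' t-test, the marker as a covariate and leaving out mice. That covariate for within-mouse differences, leaving out OS replicates 10, 11 and 12, and the relation of those differences to the marker were chosen after seeing the data.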

Additional observations from a re-analysis of the deposited data

Results flagged for a closer look

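OS replicate 17 stood apart from the other OS mice in the balance of the 2 arms of the Mir192 hairpin. Its miR-192 minus miR-192* was 8.07 on the log2 scale, where the next OS mouse had 6.39 and the lowest 5.33. In the same mouse miR-122 minus miR-192* was 11.96, with the next OS mouse at 10.22 and the lowest at 9.19, and both values come from the same low miR-192* well at Cq 34.52. Without this mouse, miR-192 minus miR-192* differed between groups by -0.03 and miR-122 minus miR-192* by 1.13. Of 26 groups of values tested for a single outlying mouse 2 were marked, and chance alone marks about 1 in 20.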

How the results depend on the processing

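The call of 0 liver wells held under all 28 alternatives run, and the difference of miR-122 kept its sign in each, from 0.63 to 1.36 apart from the settings that leave out 1 mouse. The small differences of the other wells changed sign in some settings, none past the threshold. For miR-192 the difference was 0.082 when scaled to the median, 0.19 with the panels centred separately and 0.13 without OS replicates 10, 11 and 12. For mmu-miR-802 it was 0.47 with the marker as a covariate and 0.73 without those 3 mice. For rno-miR-802 it was -0.072 with unscaled Cq, -0.76 with missing values at Cq 38 and -1.21 with no Cq limit.

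Leaving out each mouse in turn gave -0.32 to 0.40 for miR-192, -0.59 to 0.15 for miR-192*, -0.71 to 0.079 for miR-194 and -0.85 to 0.0014 for mmu-miR-802. It gave 1.27 to 1.61 for miR-122 minus miR-194, -0.028 to 0.36 for miR-192 minus miR-192*, r = 0.60 to 0.71 for miR-122 with miR-194, -0.081 to 0.25 for miR-122 with mmu-miR-802 and 0.47 to 0.73 for miR-194 with mmu-miR-802. With the marker, r was 0.54 to 0.67 for mmu-miR-802, -0.78 to -0.51 for miR-122 minus miR-192 and -0.78 to -0.64 for miR-122 minus miR-194. The r of miR-122 with miR-194 no longer passed without control replicate 1, and those of both within-mouse differences with the marker no longer passed without OS replicate 10, 11 or 12 or control replicate 3 or 13. Without OS replicate 15, OS replicate 16 or control replicate 1, miR-122 minus miR-194 passed the threshold.

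Without control replicates 3 and 13, miR-122 minus miR-192 was 1.15 and miR-122 minus miR-192* 1.40 (adjusted p = 0.0909 each), and miR-192 minus miR-194 was -0.024. Without OS replicates 10, 11 and 12 miR-122 minus miR-192 was 0.86 and miR-122 minus miR-192* 1.45 (adjusted p = 0.0974 and 0.0649). With the marker as a covariate miR-122 minus miR-192* was 1.30. The number of pairs past the threshold, 2 with all mice, was 0, 0 and 1 in these 3 settings. The cause was not tested.

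For miR-194 with mmu-miR-802, r passed at 0.65 when scaled to the reference miRNAs and at 0.71 with unscaled Cq, and for mmu-miR-802 with the marker at 0.64 when scaled to the reference miRNAs. For miR-122 with mmu-miR-802, r was -0.0036 when scaled to the median and -0.057 within OS mice. For miR-122 minus miR-194 with the marker it was -0.62 within OS and -0.57 within control mice, and for miR-122 minus miR-192 it was 0.29 within control mice.

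The 49 miRNAs called in all became 21 with unscaled Cq, 29 at a Cq limit of 35, 24 by the methods' t-test, 17 with the marker as a covariate, 20 without control replicates 3 and 13, 8 without OS replicates 10, 11 and 12, and 20 to 73 on leaving out 1 mouse. Scaling to the median moved the median of all miRNAs by 0.14 and unscaled Cq by -0.45. No paired analysis was possible because the sources used here do not give which OS and control mice shared a litter.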
